A study of Harpegnathos saltator with 32 samples.

Results

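ILP-2 (LOC105188195) encodes an insulin-like peptide of the ant Harpegnathos saltator, and its level in the brain is described across caste and Kr-h1 knockdown. It is 1 row of the 14001 genes in the deposited table and was measured in all 32 libraries. The gene was chosen by its measured FPKM in control brains, which was lower in gamergates than in workers, so that contrast is given as a description with no test. Polyadenylated RNA was sequenced from single dissected central brains. Dicer-substrate siRNA in glucose and a transfection reagent had been injected into the head, and brains were taken 10 hours later, so no uninjected brains enter the comparisons. The 4 groups were 8 day 10 gamergates given Kr-h1 siRNA, 9 day 10 gamergates given GFP siRNA, 7 day 10 workers given Kr-h1 siRNA and 8 day 10 workers given GFP siRNA. Gamergates, labelled as duelers, are workers that take up reproduction. Controls are GFP by title, while the treatment text writes GRP. Injections fall into 2 rounds by the description label, and round 2 gamergates were on sequencing run 200508 while every other library was on run 200626, so caste and run cannot be told apart in round 2.

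Insulin-like peptides are secreted hormones made as precursors that are cut and folded through disulphide bonds. In flies, several of them come from neurosecretory cells of the brain and are released into the haemolymph, where they bind the insulin receptor, a receptor tyrosine kinase. The receptor signals through the adaptor chico and PI3K to Akt, which restrains the transcription factor foxo and activates the Tor kinase, and this pathway ties feeding to growth, egg production and lifespan. Kr-h1, a zinc finger protein, relays juvenile hormone signals to gene expression, and juvenile hormone acts together with insulin signalling in insect reproduction. Its knockdown asks whether brain gene expression in each caste depends on this factor.

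Each library held 6.62 to 20.32 M recovered reads. Kr-h1 (LOC112589664), the targeted gene, had a median of 0.386 FPKM (lowest 0.114, highest 1.01) in gamergates given Kr-h1 siRNA, against 0.809 FPKM (0.480 to 7.57) in gamergates given GFP siRNA. In workers the median was 0.424 FPKM (0.297 to 0.840) after Kr-h1 siRNA, against 0.672 FPKM (0.369 to 2.54) after GFP siRNA. The group medians therefore followed the labels, while single libraries overlapped in both castes. No gene of the cell type marker lists was at 0 in every library, and the 7 neuron markers summed to between 507 and 932 FPKM across all libraries.

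ILP-2 was readily detected in every brain. It was covered by 210 reads in gamergate Kr-h1 replicate 6 up to 1514 reads in worker GFP replicate 8, which gives a counting error of 6.90% down to 2.57% of its value. The spread between brains of 1 group was larger, with a coefficient of variation between 22.2% in worker GFP and 28.2% in worker Kr-h1 libraries. Among the genes detected in a library, ILP-2 ranked between the 62.4th and the 91.6th percentile by FPKM. After group and batch terms its residual SD was 0.33 on the log2(FPKM + 0.5) scale, larger than that of 76.7% of the 9433 genes tested.

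By caste, ILP-2 was lower in gamergate brains, whichever siRNA was given. In round 2 gamergates given Kr-h1 siRNA it was at 11.4, 14.5, 10.8 and 9.28 FPKM, and in round 3 at 8.96, 7.20, 7.35 and 11.0 FPKM. In gamergates given GFP siRNA it was at 9.82, 15.9, 13.2 and 15.01 FPKM in round 2, and at 11.0, 11.2, 11.8, 11.3 and 6.85 FPKM in round 3. Every gamergate library was thus under 16 FPKM. Workers given Kr-h1 siRNA had 16.1, 24.0, 22.6 and 25.6 FPKM in round 2, and 9.96, 16.7 and 19.9 FPKM in round 3. Workers given GFP siRNA had 20.4, 18.4, 25.2, 17.1 and 22.9 FPKM in round 2, and 15.8, 30.5 and 22.2 FPKM in round 3. Of the worker libraries, only worker Kr-h1 replicate 5, at 9.96 FPKM, lay well inside the gamergate range.

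**Figure D1:**
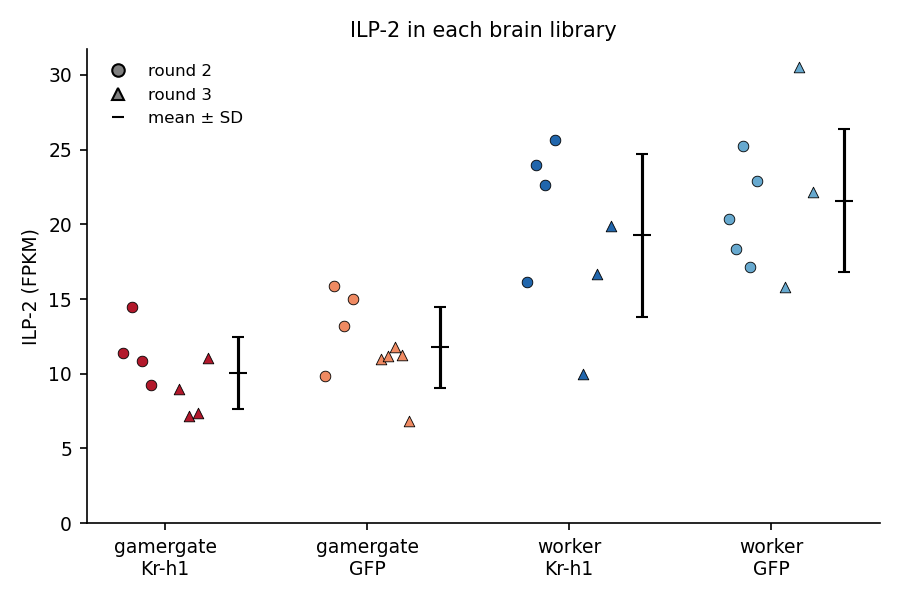
ILP-2 in each brain library, in FPKM, by group. Circles are round 2 and triangles round 3 libraries, and the bar beside each group is its mean ± SD; gamergate libraries lie between 6.85 and 15.9 FPKM, and worker libraries between 9.96 and 30.5 FPKM.

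Ordered by mean, ILP-2 was at 10.1 ± 2.39 FPKM (SD, n = 8) in gamergate Kr-h1, 11.8 ± 2.70 FPKM (SD, n = 9) in gamergate GFP, 19.3 ± 5.43 FPKM (SD, n = 7) in worker Kr-h1 and 21.6 ± 4.78 FPKM (SD, n = 8) in worker GFP libraries. The neighbours within a caste differed by less than 1 SD. The step between castes, from gamergate GFP to worker Kr-h1, was larger than the SD of either group.

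In GFP controls, the contrast on which the gene was picked, the gamergate mean was 0.546 times the worker mean. Of 9 gamergate controls, 8 lay below the lowest worker control, and the exception was gamergate GFP replicate 2, which sat just above worker GFP replicate 6 at 15.8 FPKM. Within each round the castes did not overlap. In round 2, where caste and run cannot be told apart, all 4 gamergate controls were under all 5 worker controls. In round 3 all 5 gamergate controls were under all 3 worker controls. The share of all genes that separate in this way was not counted. The limma difference, gamergate minus worker, was -0.89 ± 0.20 (SE) on the log2(FPKM + 0.5) scale, and -1.07 ± 0.24 (SE) in round 3 alone, where both castes were on the same run. The first value comes from the fit of all 32 libraries, so Kr-h1 libraries also enter it through the batch term. It was -0.99 without worker Kr-h1 replicate 5. Over all genes, 1.33% passed an adjusted p of 0.05 in this contrast, 0.731% higher and 0.594% lower in gamergates. Because the GFP libraries chose the gene, nothing is read from its place in this contrast.

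The caste comparison in Kr-h1 siRNA brains rests on libraries outside that choice. The gamergate mean was 0.522 times the worker mean, and all 8 gamergate libraries lay below the worker median. In round 2, where caste and run cannot be told apart, the 4 gamergate libraries were all under the 4 worker libraries. The share of all genes that separate in this way was not counted. In round 3, 3 of 4 gamergate libraries lay below the lowest of the 3 worker libraries. The overlap came from gamergate Kr-h1 replicate 8, at 11.0 FPKM, and worker Kr-h1 replicate 5, at 9.96 FPKM. Fitted to the 15 Kr-h1 libraries alone, the difference was -0.77 ± 0.23 (SE; 95% interval -1.26 to -0.29), with an unadjusted limma p of 0.00394 that did not pass over all genes (adjusted p = 0.456). No gene passed in this fit, 0% of 9433; at an unadjusted p below 0.05 there were 726, and voom on the recovered reads called 0 as well. In this fit round 3 alone sets the estimate, since the batch term takes up caste in round 2. An exact two-sided permutation test of the round 3 libraries gave p = 0.0857 (n = 4 and 3; adjusted over the 5 within-round tests 0.429), where 35 splits cannot give less than 0.0286. The value lay at the 0.9th percentile of the differences of all genes. With all 32 libraries in 1 fit it was -0.95 ± 0.20 (SE; limma adjusted p = 0.0419), but there the batch term draws on the control libraries that chose the gene, so that value is no independent test. In the fit of the 15 Kr-h1 libraries it was -1.05 without worker Kr-h1 replicate 5 and -0.57 without worker Kr-h1 replicate 7. The unadjusted limma p lay between 0.000224 and 0.0323 over the 15 fits that left out 1 library. Leaving out a round 2 library could not move the estimate, so only the fits without a round 3 library check it.

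Markers of other tissues varied between libraries. Muscle markers summed to 26.5 to 409 FPKM in gamergate Kr-h1, 31.4 to 79.5 in gamergate GFP, 24.9 to 77.7 in worker Kr-h1 and 48.3 to 242 FPKM in worker GFP libraries, over 7 genes. The 6 fat body markers summed to 169 to 266 FPKM in gamergate Kr-h1, 192 to 420 in gamergate GFP, 158 to 379 in worker Kr-h1 and 146 to 228 FPKM in worker GFP libraries. Of these 6, vg was listed by its symbol alone and its identity was not checked. For the 5 haemocyte markers the sums were 6.65 to 11.2, 8.78 to 16.8, 5.87 to 11.5 and 3.91 to 11.5 FPKM in the same order. None of these 3 lists had a member passing by caste, against 1.33% of all genes in GFP and 0% in Kr-h1 libraries. In controls 6 of 6 muscle markers tested were below 0 (median -0.71). Above 0 there were 5 of 5 fat body (median 0.31) and 4 of 5 haemocyte markers (0.23). In Kr-h1 libraries 4 of 6 muscle, 4 of 5 fat body and 1 of 5 haemocyte markers were above 0 (medians 0.37, 0.12 and -0.09). The glia and retina lists did have members passing. In controls 4 of 9 glia markers passed higher in gamergates, against 0.731% of all genes, namely the transporter genes Gat-a (1.03), Eaat-2 (0.99), Gat-1B (0.74) and ine (0.52). Of 11 retina markers tested, the opsin genes Rh5 (-2.11) and Lop1 (-3.18) passed lower, against 0.594% of all genes. The other 9 retina markers were above 0 in controls, and the median of the list was 0.40. In Kr-h1 libraries 0 glia and 0 retina markers passed, in a fit where 0% of all genes passed. There Gat-a was at 0.63, Eaat-2 at 0.65, Gat-1B at 0.42, ine at 0.13, Rh5 at -0.88 and Lop1 at -1.98. Glia sums were 811 to 1309 FPKM in gamergate Kr-h1, 958 to 1630 in gamergate GFP, 842 to 1201 in worker Kr-h1 and 822 to 1305 FPKM in worker GFP libraries, and retina sums 93.8 to 674, 91.5 to 851, 75.7 to 759 and 95.2 to 972 FPKM in the same order. The part of these tissues in the ILP-2 difference was not tested. A trend over gene span moved with caste in controls, and differently in Kr-h1 libraries. The rank correlation between span and a library's deviations from the gene means ran from -0.109 to 0.542 in gamergate controls, against -0.428 to -0.154 in worker controls. After Kr-h1 siRNA it ran from -0.271 to 0.208 in gamergates, against -0.396 to 0.436 in workers, and in round 3 from -0.271 to -0.111 in gamergates, against -0.152 to 0.003 in workers. With this span trend removed the ILP-2 difference was -0.73 in Kr-h1 and -1.01 in GFP libraries. Relative to the mean log2 level of 7 neuron markers in the same library, ILP-2 was at -2.81 ± 0.30 (SD, n = 8) in gamergate Kr-h1, -2.59 ± 0.46 (SD, n = 9) in gamergate GFP, -1.997 ± 0.45 (SD, n = 7) in worker Kr-h1 and -1.75 ± 0.42 (SD, n = 8) in worker GFP libraries. In whole brains, fewer ILP-2 cells and less ILP-2 RNA per cell cannot be told apart.

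ILP-2 did not pass in either knockdown contrast. In gamergates the mean after Kr-h1 siRNA was 0.854 times that after GFP siRNA, and 6 of 8 knockdown libraries lay below the control median. The difference of -0.24 ± 0.15 (SE; 95% interval -0.55 to 0.08) did not pass (limma adjusted p = 0.311), in a contrast where 0.721% of genes passed. Within rounds it was -0.22 in round 2 (n = 4 and 4) and -0.25 in round 3 (n = 4 and 5), with exact permutation p of 0.343 and 0.254 (adjusted 0.429 each). The 3 gamergate Kr-h1 libraries under 9 FPKM were all of round 3, and gamergate GFP replicate 9, at 6.85 FPKM, was lower still.

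In workers the mean after Kr-h1 siRNA was 0.893 times that after GFP siRNA, with 4 of 7 knockdown libraries below the control median. The difference was -0.18 ± 0.16 (SE; 95% interval -0.51 to 0.16) and did not pass (limma adjusted p = 0.574). No gene passed in workers, 0% of 9433; at an unadjusted p below 0.05 there were 1618, voom called 0, and array weights gave 3. The rounds differed in direction, at 0.08 in round 2 (exact permutation p = 0.659, n = 4 and 5, adjusted 0.659) and -0.55 in round 3 (exact permutation p = 0.3, n = 3 and 3, adjusted 0.429), where 20 splits cannot give less than 0.1. Without worker Kr-h1 replicate 5 the difference was -0.04. The intervals leave room for a fall of up to 0.55 in gamergates and 0.51 in workers on the log2 scale.

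The knockdown effect on ILP-2, gamergates minus workers, differed by -0.06 ± 0.22 (SE; 95% interval -0.52 to 0.40), which did not pass (limma adjusted p = 0.867), while 16.5% of all genes passed in this test, 9.47% higher and 7.01% lower. Its sign was not stable, at -0.29 in round 2, 0.30 in round 3, 0.14 with the span trend removed and 0.01 without worker Kr-h1 replicate 4. The knockdown contrasts and their difference share their control libraries with the contrast on which the gene was picked. Their estimates and p-values are therefore not independent of that choice, and choosing on control values can bias them. The 3 controls of highest Kr-h1 lay on both sides of their group's ILP-2 median. Gamergate GFP replicate 1, with Kr-h1 at 7.57 FPKM, had ILP-2 at 9.82 FPKM, below its group median of 11.3 FPKM, while gamergate GFP replicate 2, with Kr-h1 at 2.78 FPKM, had the highest ILP-2 of that group, at 15.9 FPKM. Worker GFP replicate 4, with Kr-h1 at 2.54 FPKM, had ILP-2 at 17.1 FPKM, below its group median of 21.3 FPKM.

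**Figure D2:**
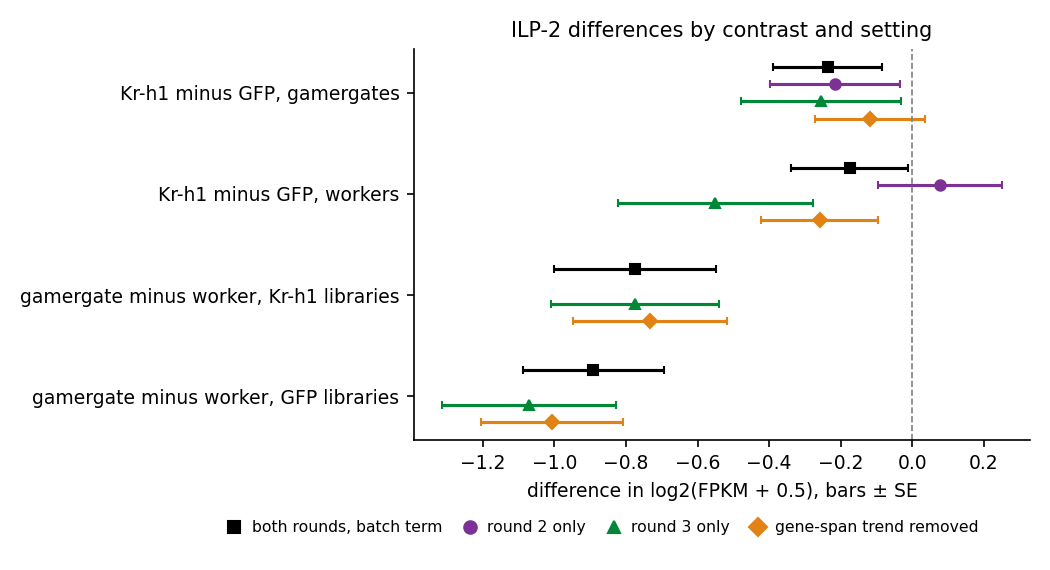
Differences in ILP-2, in log2(FPKM + 0.5) with bars of ± SE, for Kr-h1 against GFP siRNA in each caste and for gamergates against workers under each siRNA. The knockdown differences stay between -0.55 and 0.08 in the settings drawn, and the caste differences between -1.07 and -0.73; the caste difference in GFP libraries chose the gene and is a description.

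Among peptide hormone genes of the brain, ILP-2 was of middling to low abundance. By mean FPKM, which is per length, it ranked 10 of 13 in gamergate Kr-h1, 8 of 13 in gamergate GFP and 7 of 13 in worker Kr-h1 and worker GFP libraries. SIFa, a neuropeptide, and Dh31, a diuretic hormone, were the most abundant, at 148 ± 99.1 and 127 ± 22.2 FPKM (SD, n = 9) in gamergate controls, against 161 ± 47.9 and 126 ± 16.0 FPKM (SD, n = 8) in worker controls. Relative to the mean log2 level of the 12 other peptide genes, ILP-2 was at -0.95 ± 0.26 (SD, n = 8) in gamergate Kr-h1 and -0.67 ± 0.28 (SD, n = 9) in gamergate GFP libraries, against 0.11 ± 0.45 (SD, n = 7) in worker Kr-h1 and 0.19 ± 0.34 (SD, n = 8) in worker GFP libraries.

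Of the 12 peptide genes besides ILP-2, 0 passed in any contrast. Over all genes, 0% passed by caste in Kr-h1 libraries and 1.33% in GFP libraries. For knockdown, 0% passed in workers, 0.721% in gamergates and 16.5% in the difference between castes. In GFP controls 7 of the 12 were below 0, with a median log2 difference of -0.09, against -0.01 over all genes tested, and in Kr-h1 libraries 8 of 12 were below 0, with a median of -0.11, against 0.01 over all genes. NPF (LOC105189899), a feeding-related neuropeptide, was closest to ILP-2, at -0.59 ± 0.24 in Kr-h1 libraries and -0.78 ± 0.21 in GFP libraries (SE; limma adjusted p = 0.601 and 0.052). At the other end CCHa1 (LOC105181279), a neuropeptide named here after its values were seen, was at 1.09 ± 0.25 in Kr-h1 and 0.80 ± 0.23 in GFP libraries (SE; limma adjusted p = 0.446 and 0.0611). Of the most abundant, SIFa was at -0.11 in Kr-h1 and -0.45 in GFP libraries, Dh31 at -0.18 and -0.10, Dsk, a sulfakinin, at -0.02 and -0.49, and Crz, corazonin, at 0.71 and 0.76.

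**Figure D3:**
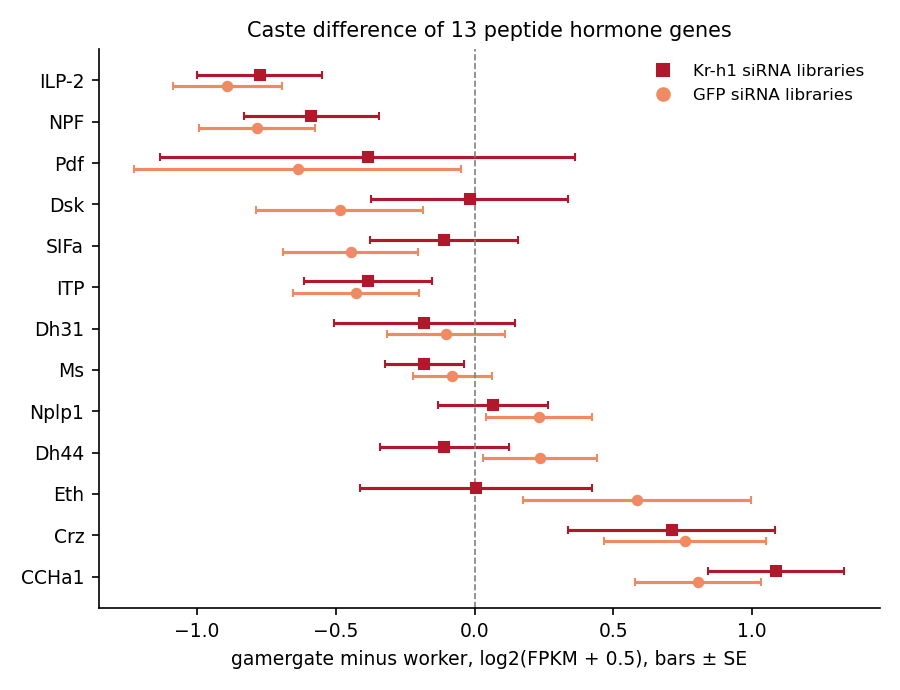
Gamergate minus worker difference of ILP-2 and 12 other peptide hormone genes, in log2(FPKM + 0.5) with bars of ± SE, in Kr-h1 and in GFP siRNA libraries. ILP-2, at -0.77 and -0.89, stands at the lower end with NPF beside it, and CCHa1 at the upper end. The difference in GFP libraries chose ILP-2, and CCHa1 was named after its values were seen, so these places are a description.

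Of 12 genes that process and release peptides, among them the prohormone convertase amon and its helper 7B2, 0 passed in either caste contrast and 0 passed in either knockdown contrast. Their median caste difference was 0.01 in Kr-h1 and 0.15 in GFP libraries. Of the most abundant, 7B2 was at 0.15 in Kr-h1 and 0.38 in GFP libraries, amon at 0.04 and 0.54, Syt4, a synaptotagmin, at 0.08 and 0.13, and Cadps, which primes dense-core vesicles, at -0.29 and -0.05. Of 10 genes listed as receptors and inputs of the insulin-producing cells of flies, 0 passed in the caste or knockdown contrasts. Among them were the GABA-B receptor genes GABA-B-R1 and GABA-B-R2, the glucose transporter gene Glut1 and the octopamine receptor gene Oamb. Over all genes, at most 1.33% passed in any of the caste and knockdown contrasts. In the test of the knockdown effect between castes, 4 of the 12 processing genes (Nep3, svr, amon and Fur2, at -0.80, -0.89, -0.78 and -1.21) and 3 of these 10 (dome, rk and Oamb, at -0.56, -0.55 and -0.80) passed, all lower, against 7.01% of all genes called lower and 16.5% either way. None of the 7 passed in either round alone, without the batch term or without the 4 libraries of lowest array weight. Leaving out 1 library at a time, Nep3 and Oamb passed in all 32 fits, dome was lost in 20, rk in 9 and svr in 8, and amon and Fur2 were lost without worker Kr-h1 replicate 2.

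Of the listed genes of insulin binding and reception besides ILP-2, 0 passed by caste. ILP-2 itself did not pass in Kr-h1 libraries and has no test in GFP libraries. Over all genes, 0% passed by caste in Kr-h1 libraries and 1.33% in GFP libraries. ImpL2 (LOC105183446), a secreted protein that binds insulin-like peptides in flies and limits their action, averaged 24.3 ± 8.96 FPKM (SD, n = 8) in gamergate Kr-h1, 20.2 ± 6.16 (SD, n = 9) in gamergate GFP, 17.9 ± 3.39 (SD, n = 7) in worker Kr-h1 and 19.6 ± 7.25 FPKM (SD, n = 8) in worker GFP libraries. Its caste difference was 0.22 in Kr-h1 libraries (limma adjusted p = 0.885) and 0.14 in GFP libraries (limma adjusted p = 0.778), and it passed in no contrast. The other binding partner listed, conv, a leucine-rich repeat protein, ranged from 0.122 to 25.2 FPKM in gamergate Kr-h1, 0.0752 to 31.0 in gamergate GFP, 0.0333 to 34.8 in worker Kr-h1 and 0.159 to 7.96 FPKM in worker GFP libraries, and passed in no contrast. InR-2 (LOC105185958), an insulin receptor gene, averaged 4.91 ± 0.94 FPKM (SD, n = 8) in gamergate Kr-h1, 5.26 ± 0.85 (SD, n = 9) in gamergate GFP, 6.17 ± 1.20 (SD, n = 7) in worker Kr-h1 and 4.74 ± 0.33 FPKM (SD, n = 8) in worker GFP libraries. Its caste difference was -0.43 in Kr-h1 and -0.0029 in GFP libraries (limma adjusted p = 0.601 and 0.991). The adaptor gene chico (LOC105180459) was at 12.7 ± 1.69 FPKM (SD, n = 8) in gamergate Kr-h1, 14.8 ± 2.35 (SD, n = 9) in gamergate GFP, 13.6 ± 2.40 (SD, n = 7) in worker Kr-h1 and 11.1 ± 1.13 FPKM (SD, n = 8) in worker GFP libraries, a caste difference of -0.14 in Kr-h1 and 0.33 in GFP libraries. In Kr-h1 libraries the other adaptors had Lnk at -0.08, drk at 0.07, Shc at 0.03 and dock at 0.01.

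**Figure D4:**
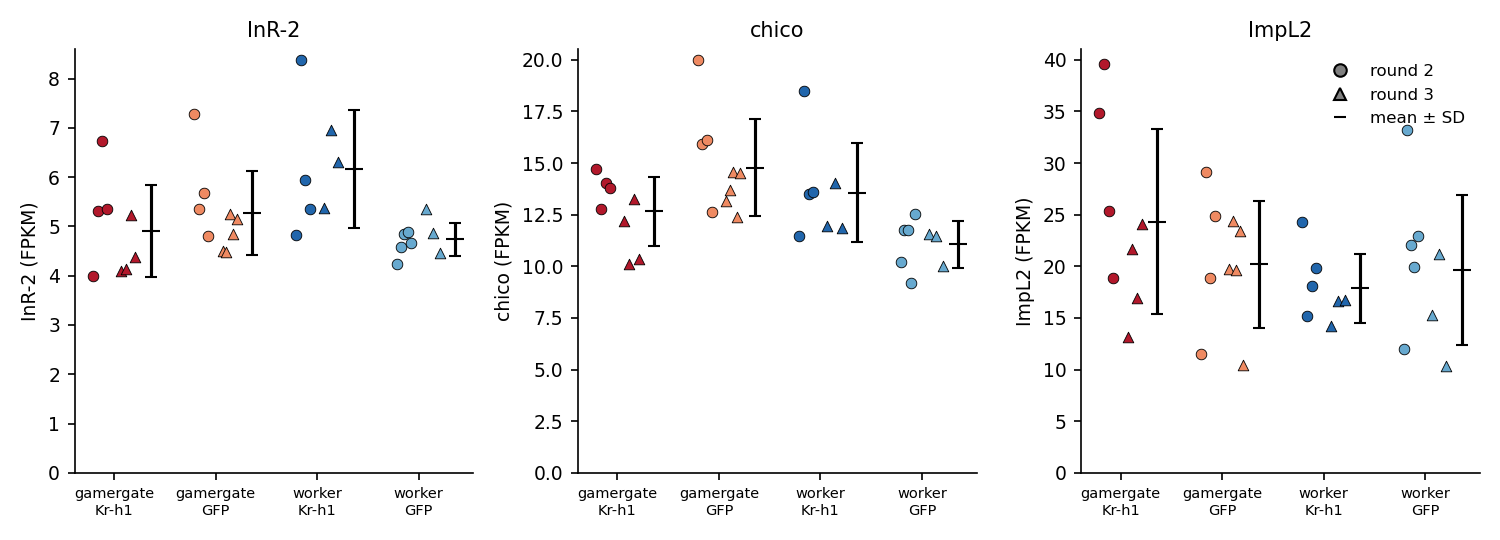
InR-2, chico and ImpL2 in each library, in FPKM, by group, with circles for round 2, triangles for round 3 and bars for the mean ± SD. The groups overlap for all 3 genes, with InR-2 means between 4.74 and 6.17 FPKM.

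In any of the caste and knockdown contrasts at most 1.33% of all genes passed. Further down the pathway 0 of 10 genes of PI3K, Akt and FoxO and 0 of 11 genes of the TOR branch passed there. Of the most abundant, Pdk1, the kinase that activates Akt, was at -0.55 in Kr-h1 and -0.28 in GFP libraries (gamergate minus worker), wdb, a phosphatase subunit gene, at 0.08 and 0.11, Pi3K21B, the PI3K adaptor subunit, at -0.16 and 0.06, and Pi3K59F at -0.09 and 0.18. In the TOR branch Thor, the 4E-BP gene that foxo activates in flies, was at 0.32 in Kr-h1 and 0.14 in GFP libraries, REPTOR-BP at -0.15 and -0.31, Rheb, the GTPase upstream of Tor, at -0.0034 and -0.23, and raptor, a partner of Tor, at -0.19 and -0.19. In the test of the knockdown effect between castes, where ILP-2 did not pass, 3 of 6 receptor and adaptor genes and 3 of 11 TOR branch genes did, against 16.5% of all genes. The differences were -0.44 for InR-2, -0.50 for chico, -0.37 for dock, -0.68 for Tor, -0.64 for rictor and 0.24 for Rheb (limma adjusted p from 0.0172 to 0.0498). None of the 6 passed in either round alone, without the batch term or without the 4 libraries of lowest array weight, and of these only rictor passed with the span trend removed. InR-2 was also lost without any of gamergate GFP replicate 1, worker Kr-h1 replicate 2 and gamergate Kr-h1 replicate 1 (limma adjusted p up to 0.0734). Leaving out 1 library at a time, chico, Tor and rictor passed in all 32 fits, dock in 13 and Rheb in 7.

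Genes whose pattern was most like that of ILP-2 were ranked by Spearman correlation over the 32 libraries, which share group and batch. CPR1 (LOC105180609), a cuticular protein gene, was first among all 9432 other genes, at 0.774. It averaged 3.40 ± 3.43 FPKM (SD, n = 8) in gamergate Kr-h1, 1.75 ± 1.51 (SD, n = 9) in gamergate GFP, 7.56 ± 4.40 (SD, n = 7) in worker Kr-h1 and 14.9 ± 7.38 FPKM (SD, n = 8) in worker GFP libraries. NPF was second at 0.710, with 10.7 ± 4.496 FPKM (SD, n = 8), 8.45 ± 1.18 (SD, n = 9), 11.8 ± 2.10 (SD, n = 7) and 15.6 ± 5.49 FPKM (SD, n = 8) in the same order. The next genes with a symbol were CycG (0.679), Pino (0.666), CPR14 (0.644) and Rfx (0.641), and the most opposite with a symbol were Vha26 (-0.718), Nmdar1 (-0.700) and vib (-0.691). For comparison, 95% of genes lay within 0.506 of 0.

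With group and batch means taken out, other genes came to the top. Among genes with a symbol, NaPi-T was at 0.660, pAbp at 0.625, Rrp5 at 0.584, Tsc1 at 0.572, Fam92 at 0.571 and Plekhm1 at 0.569, and CaMKI was lowest at -0.592, with Gdi at -0.580 and slow at -0.575. Genes without a symbol lay among them, the highest at 0.711. CPR1 was then at 0.378 and NPF at 0.192, where 95% of genes lay within 0.391 of 0. 

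**Figure D5:**
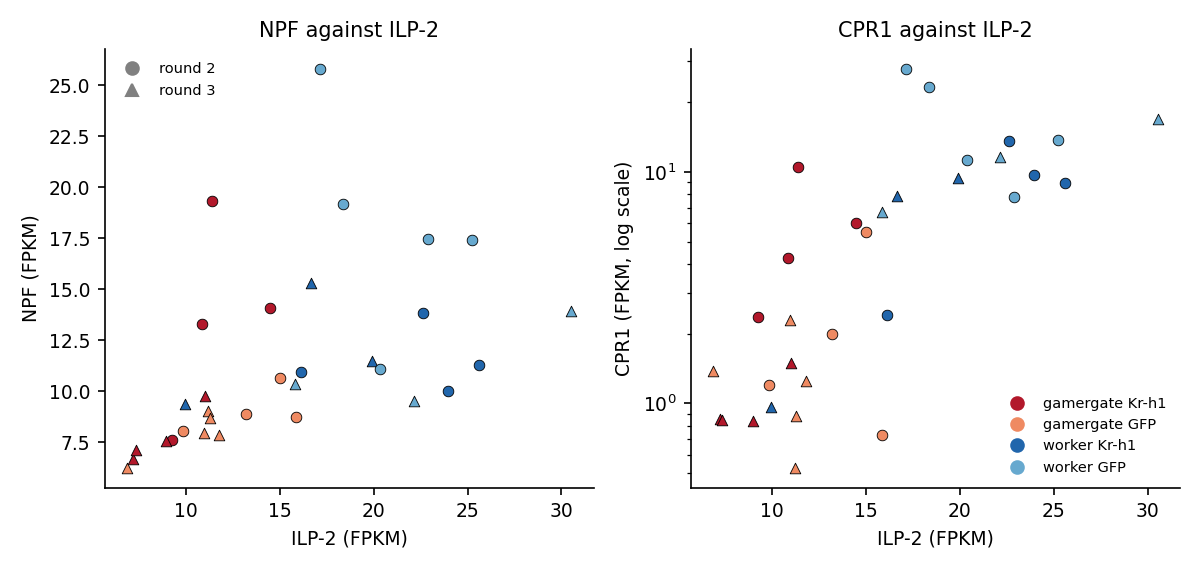
NPF (FPKM) and CPR1 (FPKM, log scale) against ILP-2 (FPKM) in the 32 libraries, coloured by group, with circles for round 2 and triangles for round 3. Most gamergate libraries lie at the lower left of both panels and most worker libraries to the right; gamergate Kr-h1 replicate 1 is the library with 19.3 FPKM of NPF.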

How the data were processed

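The authors deposited 1 table of FPKM values per gene and library. Tools named, per the submitters' processing notes, are bcl2fastq, STAR, featureCounts and DESeq2, without versions or roles. Genome build and annotation: not given in the sources used here. Coordinates are therefore left out. Symbols and gene spans come from the RefSeq assembly Hsal_v8.6, matched by identifier (13989 of 14001). Reads were recovered from the steps of the FPKM values, with a step for 12406 of 12431 genes detected in at least 5 libraries (tolerance 0.02 reads); ILP-2 values were whole to within 3.9e-07 reads. Even numbers made up 55.2% of nonzero reads, so counting errors are those of recovered reads and cover counting only. Whether the counting used strand is not given.

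Tests were made on log2(FPKM + 0.5) with limma 3.58.1 (R 4.3.3), for the 9433 genes that reached 1 FPKM in 7 or more libraries. This scale understates the change of low genes. The fit had 4 groups, 3 batch levels from round and run, and a variance trend, with Benjamini-Hochberg adjustment over all genes. Libraries are single brains, per the series' design text. The caste contrast in Kr-h1 brains was fitted to those 15 libraries alone. The 5 within-round tests were exact permutations of the difference of mean log2 values. The fit was tested on simulated data with independent errors and no batch or span effect, so that check does not cover those effects. The gene and the lists were chosen with earlier results of these data known. Peptide receptors and the channel gene SK were taken out of the peptide list by name. Genes named are ILP-2, Kr-h1, the members of the insulin lists, called members and the 4 most abundant of the other lists, and, among genes with a symbol, the 6 most and 3 least alike by each correlation; CCHa1 and vg were added after their values were seen. The alternatives changed the scaling, pseudocount, filter or batch term, or used single rounds, a replicate block, array weights, voom on recovered reads, the trend over gene span and each library left out. A fit without the 4 libraries of lowest array weight was added after seeing the data.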

Additional observations from a re-analysis of the deposited data

Results flagged for a closer look

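No ILP-2 value stood apart from its group in the 4 groups. Of 16 groups of values examined, over ILP-2, Kr-h1, InR-2 and ImpL2, 4 had a library far from the others, where chance gives about 1 in 20. Kr-h1 was at 7.57 FPKM in gamergate GFP replicate 1, at 0.840 FPKM in worker Kr-h1 replicate 4 and at 2.54 FPKM in worker GFP replicate 4. InR-2 was at 7.28 FPKM in gamergate GFP replicate 1.

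The knockdown effect differed between castes, by the limma interaction test, for 6 genes of the insulin and TOR lists. The differences on the log2 scale, gamergates minus workers, were -0.44 for InR-2, -0.50 for chico, -0.37 for dock, -0.68 for Tor, 0.24 for Rheb and -0.64 for rictor. In this test 16.5% of all genes passed. All 6 calls were lost in either round alone, without the batch term and with array weights. ILP-2 was not among them, at -0.06.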

How the results depend on the processing

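The knockdown difference of ILP-2 in gamergates stayed below 0 and unpassed in all 12 alternatives (-0.30 to -0.12). In workers it turned to 0.078 in round 2 only, and lay between -0.55 and -0.11 in the other 11. The difference between castes turned to 0.30 in round 3 only and to 0.14 with the span trend removed. The caste difference in Kr-h1 libraries passed only with all 32 libraries in 1 fit (-0.95, limma adjusted p = 0.0419), where controls that chose the gene set the batch term, and ranged from -0.95 to -0.73 over the 12 alternatives (limma adjusted p from 0.0419 to 0.486). The cause of these changes was not tested. In GFP libraries the caste difference ranged from -1.07 to -0.75. Round 2 alone gives no caste difference, since caste and run cannot be told apart there.

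Leaving out 1 library, the ranges were -0.30 to -0.20 in gamergates, -0.24 to -0.04 in workers, -0.19 to 0.0082 (without worker Kr-h1 replicate 4) for their difference, -1.05 to -0.57 for caste in Kr-h1 libraries and -0.99 to -0.69 in GFP libraries.

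Replicate numbers did not pair the libraries: correlations of same-numbered deviations ran from -0.307 to 0.240 in workers and -0.406 to 0.438 in gamergates. With a replicate block ILP-2 was at -0.30 in gamergates, -0.11 in workers, -0.20 for their difference, -0.89 for caste in Kr-h1 and -0.75 in GFP libraries, with no call altered, and the genes called numbered 113, 0, 698, 1 and 53.

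The background counts moved with the settings. The 68 genes called in gamergates became 11 with no filter, 23 by voom, 39 with array weights, 6 in round 3, 11 in round 2, 144 without the 4 libraries of lowest weight, and 0 with the span trend removed or with no batch term. The 1554 called for the difference became 125 with array weights, 165 with the span trend removed, and 0 with no batch term, in either round or without the 4 libraries. The 125 called for caste in GFP libraries became 81 with no filter, 56 in round 3, 302 with array weights, 286 without the 4 libraries and 4436 with no batch term. In workers array weights gave 3 in place of 0, and 16 genes passed for caste in Kr-h1 libraries with all 32 libraries. Leaving out 1 library gave 0 to 866, 399 to 2191, 26 to 231, 0 and 0 to 2 genes in the order gamergates, difference, caste in GFP, workers and caste in Kr-h1 libraries. The counting error of ILP-2, 6.90% at most, was below the spread between brains of every group.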

Other observations

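Among the listed genes outside the brain's own peptides, vg (LOC105187457), named after its values were seen, ran most opposite to ILP-2 over the 32 libraries. Its Spearman correlation was -0.669, and -0.187 with group and batch means taken out. The gene stands among the fat body markers by its symbol alone, and whether it encodes a yolk protein precursor was not checked. It was low in every group, at 3.26 ± 0.411 FPKM (SD, n = 8) in gamergate Kr-h1, 3.51 ± 0.861 (SD, n = 9) in gamergate GFP, 2.61 ± 0.445 (SD, n = 7) in worker Kr-h1 and 2.50 ± 0.373 FPKM (SD, n = 8) in worker GFP libraries. With the batch term its caste difference was 0.27 in Kr-h1 and 0.30 in GFP libraries and did not pass (limma adjusted p = 0.708 and 0.216).

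Of the juvenile hormone and ecdysone genes, 10 of 12 were tested and 0 passed in the caste or knockdown contrasts. At most 1.33% of all genes passed in any of those contrasts. In the test of the knockdown effect between castes ftz-f1 (-0.46), a nuclear receptor gene, and br (-1.02), the broad transcription factor gene, passed, both lower, against 7.01% of all genes called lower. Both were lost in either round alone and without the batch term, ftz-f1 also in 10 of 32 fits that left out 1 library and br without worker Kr-h1 replicate 2. E75, a nuclear receptor gene that responds to ecdysone, was at 99.0 ± 18.6 FPKM (SD, n = 8) in gamergate Kr-h1, 97.7 ± 20.9 (SD, n = 9) in gamergate GFP, 138 ± 17.9 (SD, n = 7) in worker Kr-h1 and 132 ± 25.95 FPKM (SD, n = 8) in worker GFP libraries, a caste difference of -0.45 and -0.35 in Kr-h1 and GFP libraries (limma adjusted p = 0.533 and 0.173). The next most abundant were Eip93F, a transcription factor gene of the ecdysone response, at -0.30 in Kr-h1 and -0.23 in GFP libraries, usp, the partner of the ecdysone receptor, at 0.02 and 0.31, and Hr3, a nuclear receptor gene, at -0.40 and -0.26.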
